A study of Mus musculus with 12 samples.

Results

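The genes described here encode enzymes that remove superoxide and hydrogen peroxide, or that supply the reducing power for doing so, most of them inside mitochondria. They are Sod1, Sod2, Cat, Gpx1, Prdx3, Prdx5, Txn2, Txnrd2, Glrx2 and Nnt. They were taken as a list of mouse gene symbols and matched to the Ensembl identifiers of the count files, so that the list holds 10 of the 55487 genes counted. All 10 had enough reads to be among the 13535 genes tested.

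Messenger RNA was measured by RNA sequencing in 12 libraries of primary mouse hepatocytes, the main working cells of the liver, kept in culture. Control cells received no treatment, and the FAC group received FAC alone, which the labels do not spell out and which in iron research usually stands for ferric ammonium citrate, an iron salt. The Lip-1+FAC group was given liproxstatin-1, a scavenger of lipid reactive oxygen species, on day 2 of culture and then FAC. The MT+FAC group was given Mito-TEMPO, a scavenger of mitochondrial reactive oxygen species, on the same day and then FAC. Each group had 3 libraries, and no group received a scavenger without FAC. The labels name neither the strain, the age nor the animals behind each replicate, so that p-values measure the spread between these libraries, which may be technical.

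Superoxide leaks from the respiratory chain and from several oxidases. Superoxide dismutases convert it to hydrogen peroxide, Sod2 in the mitochondrial matrix and Sod1 mainly in the cytosol. Hydrogen peroxide is then removed by catalase (Cat) in peroxisomes, by glutathione peroxidase 1 (Gpx1) and by peroxiredoxins, of which Prdx3 is mitochondrial and Prdx5 is found in mitochondria, peroxisomes and cytosol. In the matrix, oxidised Prdx3 is reduced by thioredoxin 2 (Txn2), which is itself reduced by thioredoxin reductase 2 (Txnrd2) at the expense of NADPH. Glutaredoxin 2 (Glrx2) uses glutathione to reduce protein disulfides there, and Nnt is a proton pump of the inner membrane that makes matrix NADPH. Iron reacts with hydrogen peroxide to give the hydroxyl radical, and the liver is the main store of iron.

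The sequence upstream of the start of transcription is shown for Cat, Prdx3, Sod1 and Txn2, the genes of the list whose level differed from FAC in both pretreated groups. The sequences are the 250 bases before the start in RefSeq, build GRCm38.p6, read 5′ to 3′ on the strand of the gene. Cat lies at chr2:103485154-103485403 on the minus strand, Prdx3 at chr19:60874539-60874788 on the minus strand, Sod1 at chr16:90220512-90220761 on the plus strand and Txn2 at chr15:77928995-77929244 on the minus strand. Capitals mark matches to the GC box, GGGCGG on either strand, and in Sod1 also the antioxidant response element core.
Cat: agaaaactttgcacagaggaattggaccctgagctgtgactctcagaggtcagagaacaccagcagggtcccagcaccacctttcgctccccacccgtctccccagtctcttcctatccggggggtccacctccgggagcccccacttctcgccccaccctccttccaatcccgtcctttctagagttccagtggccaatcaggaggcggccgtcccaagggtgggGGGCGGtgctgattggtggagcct
Prdx3: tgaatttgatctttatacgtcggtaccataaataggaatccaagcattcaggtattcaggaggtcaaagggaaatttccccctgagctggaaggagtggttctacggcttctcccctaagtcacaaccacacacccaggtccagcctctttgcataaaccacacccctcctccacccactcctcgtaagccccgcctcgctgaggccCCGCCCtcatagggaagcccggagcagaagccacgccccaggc
Sod1: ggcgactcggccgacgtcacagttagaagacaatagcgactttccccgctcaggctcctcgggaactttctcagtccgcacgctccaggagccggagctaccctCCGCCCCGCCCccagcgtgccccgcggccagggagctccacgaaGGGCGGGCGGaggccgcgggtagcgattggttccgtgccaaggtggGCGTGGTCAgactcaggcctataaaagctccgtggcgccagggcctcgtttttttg
Txn2: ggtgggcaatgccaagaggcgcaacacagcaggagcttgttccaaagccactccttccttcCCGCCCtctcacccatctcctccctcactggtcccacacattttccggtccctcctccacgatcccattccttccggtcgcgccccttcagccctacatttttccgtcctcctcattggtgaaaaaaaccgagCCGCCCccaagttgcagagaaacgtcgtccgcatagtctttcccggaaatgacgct

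A window in RefSeq, 250 bases before and 50 after a start, was found for 9 of the 10 genes, with several starts for Glrx2. The GC box, a site of many promoters without a TATA box, occurred in all 9. It also occurred in 67.2% of the 9869 tested genes that have a window and in 35.7% of all 32851 windows, so that it does not set these genes apart. The antioxidant response element core, TGACNNNGC on either strand, occurred in Sod1 alone, 56 bases before the start on the minus strand, against 12.4% of all windows. A match to the NF-kB consensus occurred in Sod2, 83 bases before the start, against 4.51% of windows, and the FOXO motif GTAAACA in a Glrx2 window, against 3.65%. The NRF1 motif and the ESRRA motif AAGGTCA had no match in these windows, against 6.23% and 4.72% of all windows. These matches describe letters only. Cat and Prdx3, which rose against FAC, and Sod1 and Txn2, which fell, all carry the GC box.

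Reads assigned to genes numbered 22991598 to 31683376 in 11 of the libraries and 52529278 in FAC replicate 2, a file marked as combined without saying what was combined. The share of reads assigned to a gene was 75.8% to 77.8% in the FAC libraries and 78.0% to 81.2% in the other 9, and reads in no gene 2.92% to 3.13% in FAC and 2.27% to 2.56% in the others. Both shares set the FAC group apart. The assigned share also differed between control (78.0% to 79.75%) and the pretreated groups (80.4% to 81.2% with Lip-1+FAC, 80.5% to 80.7% with MT+FAC). The part of these shares in the differences below was not tested. The biological coefficient of variation shared by the genes was 9.71%. Hepatocyte markers were abundant in each library: the 8 genes of that list summed to 16770 to 17173 CPM (counts scaled to a library of 1000000 counts) in control and 16000 to 16693 CPM in FAC, against 12736 to 13808 CPM with Lip-1+FAC and 13157 to 14446 CPM with MT+FAC. The hepatocyte sum thus moved with the pretreatments. Of the 8 Kupffer cell and leukocyte markers 6 were tested, and their sum, nearly all of it Cd68, was 222 to 256 CPM in control and 287 to 321 CPM in FAC, against 117 to 146.5 CPM with Lip-1+FAC and 142.7 to 174 CPM with MT+FAC. Against FAC, where the sum fell, the median of this list by edgeR was 0.15 on the log2 scale with each pretreatment. With liproxstatin-1 1 of these markers was called higher and 1 lower, and with Mito-TEMPO 2 higher and 1 lower. The leukocyte marker Ptprc was at or below 0.4 CPM in every library. The 6 tested of 7 endothelial markers summed to 35.9 to 36.7 CPM in control and 34.8 to 34.9 CPM in FAC, against 27.6 to 28.1 CPM with Lip-1+FAC and 27.3 to 31.4 CPM with MT+FAC, most of it Stab2, while Clec4g was at or below 0.25 CPM. The 6 tested of 8 stellate cell and fibroblast markers summed to 20.3 to 28.4 CPM in control and 30.0 to 38.6 CPM in FAC, against 14.4 to 17.4 CPM with Lip-1+FAC and 15.9 to 20.96 CPM with MT+FAC, with Lrat at or below 0.45 CPM. Of 6 bile duct markers 5 were tested, and they summed to 58.6 to 69.0 CPM in control and 98.4 to 123 CPM in FAC, against 109.6 to 124.9 CPM with Lip-1+FAC and 104 to 144.7 CPM with MT+FAC, with Cftr at or below 0.0715 CPM. By edgeR 4 of these 5 rose with FAC, with a list median of 1.32 on the log2 scale, and against FAC 4 fell and 1 rose with each pretreatment, with medians of -2.46 with liproxstatin-1 and -1.88 with Mito-TEMPO. Sox9 reached 57.5 CPM and Spp1, the marker that rose with the pretreatments, 124.6 CPM. Of the stellate cell and fibroblast markers, Reln was the highest in FAC and Acta2 in the other groups. The median of that list ran against its sum. It was -0.48 in FAC against control, with 1 called higher and 1 lower. Against FAC it was 0.13 with liproxstatin-1 and 0.29 with Mito-TEMPO, with 0 called higher and 2 lower in each. The endothelial list median was 0.02 and 0.24 against FAC, with 1 called higher and 1 lower in each. The part of hepatocyte and other cell type markers in the differences below was not tested. In bulk RNA, fewer cells of a type and less RNA per cell cannot be told apart.

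Levels between genes were compared per kilobase of the principal transcript, as means over the 12 libraries. Gpx1 was the most abundant at 998 CPM per kb, followed by Cat at 565 CPM per kb. Prdx5 (186 CPM per kb), Sod1 (183 CPM per kb) and Txn2 (151.8 CPM per kb) formed a middle group, in which Prdx5 and Sod1 changed places between groups of libraries. Prdx3 stood at 108 CPM per kb. Sod2 stood at 31.4 CPM per kb and Txnrd2 at 23.6 CPM per kb, and their libraries did not overlap. The place of Sod2 depends on the length used, 5861 bases against 641 for Sod1. In CPM, Sod2 (184) stood above Sod1 (117.5). Glrx2 was low at 6.58 CPM per kb. Nnt, at 0.293 CPM per kb, had only 16 to 51 reads in a library.

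**Figure D1:**
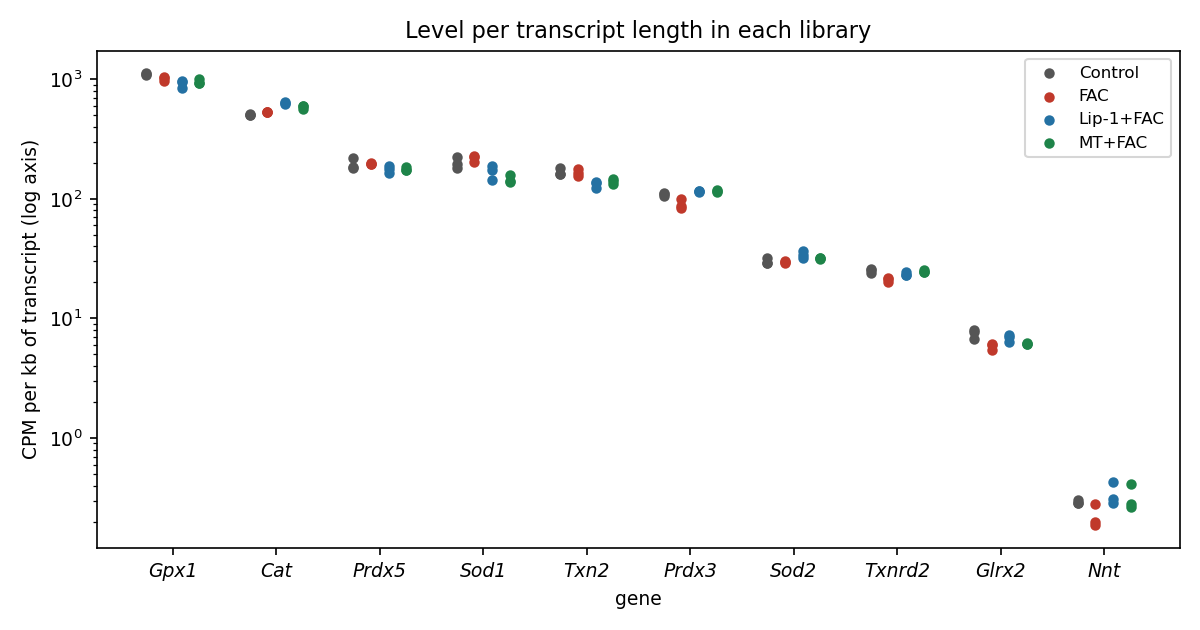
Level of each gene per kilobase of its principal transcript (CPM per kb, log axis), one point per library, coloured by group. Gpx1 and Cat lie above the other genes in every library, and Nnt lies far below them.

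The value of Nnt is not a measure of its expression. Its annotation (GRCm38 chromosome 13, 119335448 to 119408997, minus strand) holds a second gene model of the same name on the same strand, with which 47.45% of the exonic bases of the first, 3339 of 7037, are shared. Reads in shared bases are set aside as ambiguous when counted per gene, and the second model had 0 counts in all libraries. As background, C57BL/6J mice carry a deletion in Nnt, and the strain used is not given in the labels. Nnt was called in none of the 6 comparisons, its widest range being from 16 reads in FAC replicate 3 to 51 reads in the deepest library, FAC replicate 2.

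**Figure D2:**
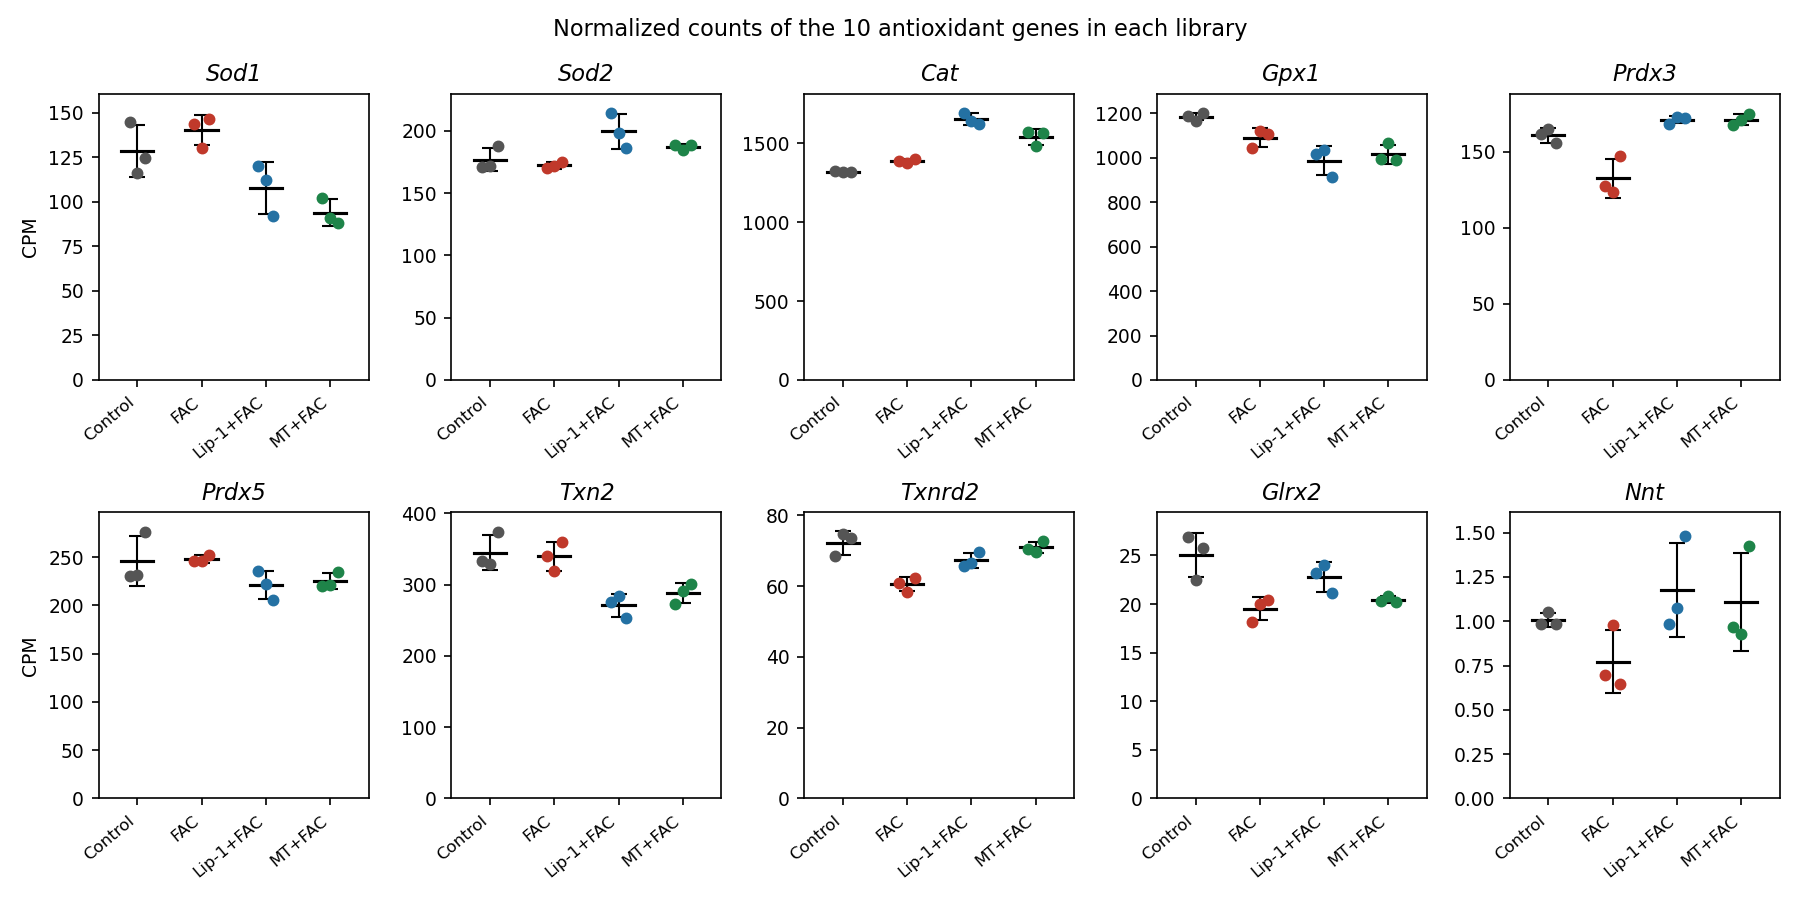
Normalized counts (CPM) of the 10 genes in each library, with group means (bars) and SD (error bars, n = 3); axes start at 0. Prdx3, Txnrd2 and Glrx2 are lower in each FAC library than in each control library, and Cat is higher in each pretreated library than in the FAC libraries.

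The 10 genes moved little and in both directions. With FAC, 3 genes of mitochondrial enzymes were called: Prdx3 fell by 17.6%, Txnrd2 fell by 16.1% and Glrx2 fell by 21.9%. The mitochondrial Sod2, Txn2, Prdx5 and Nnt did not pass the test (-0.036, -0.021, 0.012 and -0.35 on the log2 scale). Prdx3 was 29.2% higher with liproxstatin-1 and 29.1% higher with Mito-TEMPO than with FAC alone, Cat was also higher, and Sod1 and Txn2 were lower. The largest difference called was that of Sod1, which fell by 32.9% in MT+FAC against FAC.

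By the quasi-likelihood test of edgeR, at an adjusted p under 0.05 over all genes tested, 3 of 10 genes were called in FAC against control, all lower, where 36.6% of all genes were called, 17.5% higher and 19.1% lower. In Lip-1+FAC against FAC 5 of 10 were called, 3 higher and 2 lower, against 39.9% of all genes, 20.7% higher and 19.2% lower. In MT+FAC against FAC 5 of 10 were called, 3 higher and 2 lower, against 40.9%, 21.2% higher and 19.7% lower. These shares are close to those of all genes, so that the counts say nothing particular about this group of enzymes. The libraries of the groups compared did not overlap for 6 of 10 genes in FAC against control (46.2% of all genes). The same held for 10 of 10 in Lip-1+FAC against FAC (50.8%) and for 7 of 10 in MT+FAC against FAC (52.9%). The counts in FAC against control and in Lip-1+FAC against FAC include Nnt, whose value is not a measure of its expression. The median absolute log2 fold change of the 10 genes was 0.12 in FAC against control, 0.24 in Lip-1+FAC against FAC and 0.19 in MT+FAC against FAC. Over all genes tested it was 0.27, 0.29 and 0.29. The comparisons with FAC and the comparison of FAC with control share the FAC libraries, and their values are only set side by side here.

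**Figure D3:**
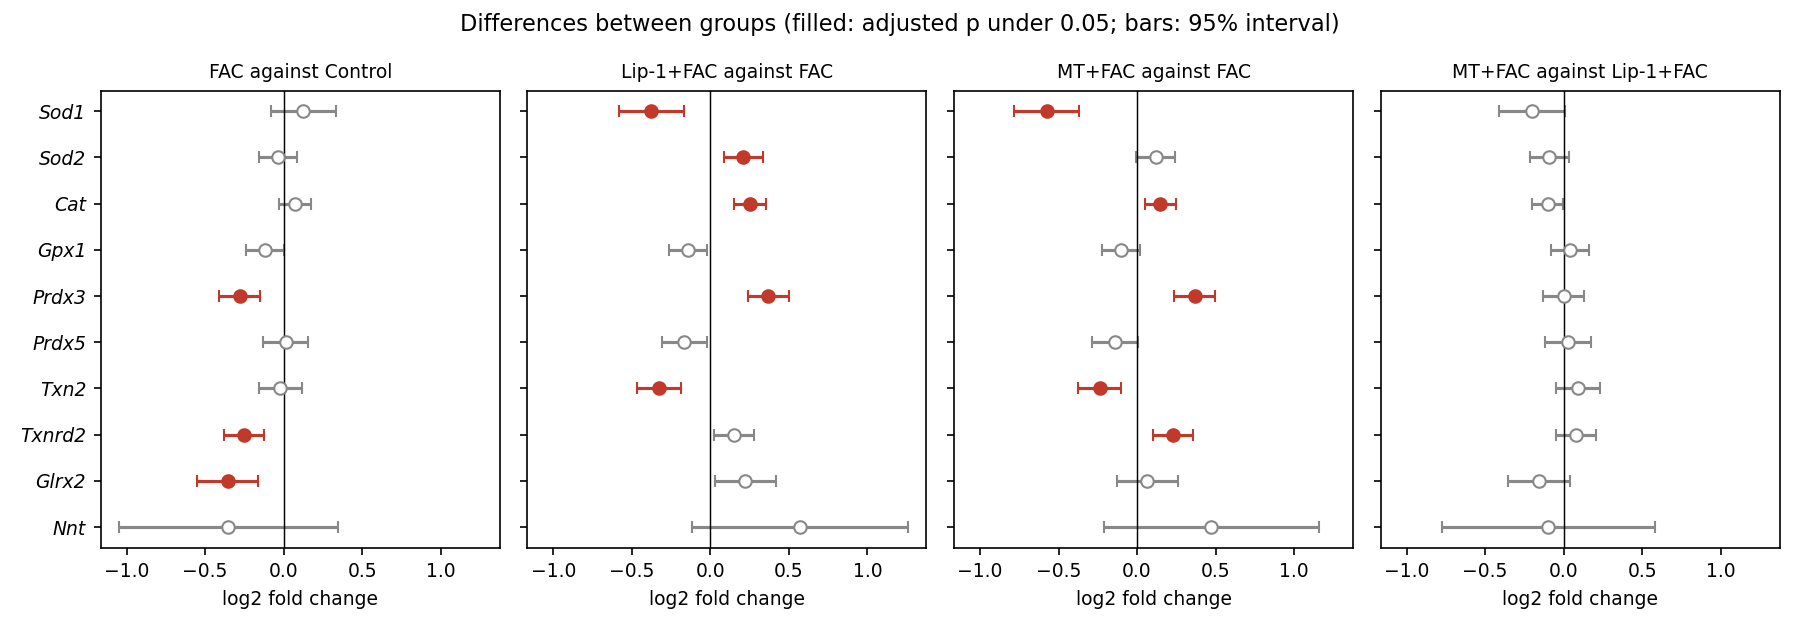
Log2 fold changes of the 10 genes in 4 comparisons, with 95% intervals from edgeR; filled points have an adjusted p under 0.05. Prdx3 lies left of 0 in FAC against control and right of 0 in both pretreatments against FAC, and no point is filled in MT+FAC against Lip-1+FAC.

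Among the superoxide dismutases, Sod1 (ENSMUSG00000022982, GRCm38 chromosome 16, 90220754 to 90226329) stood at 145, 116 and 124 CPM in control and at 143.6, 130 and 146.1 CPM in FAC. It stood at 120, 112 and 91.8 CPM in Lip-1+FAC and at 102, 91.1 and 88.0 CPM in MT+FAC. All 6 pretreated libraries lay below the 3 FAC libraries, whereas control and FAC overlapped. Against FAC, the log2 fold change of Sod1 was -0.38 with liproxstatin-1 (SE 0.0979, edgeR adjusted p = 0.0066) and -0.58 with Mito-TEMPO (SE 0.0982, edgeR adjusted p = 0.00027), and both were called lower. FAC against control gave 0.13 (95% interval -0.08 to 0.33), which was not called. Against control, Sod1 fell by 26.9% in MT+FAC (edgeR adjusted p = 0.00475). In Lip-1+FAC the difference of -15.9% missed the threshold (edgeR adjusted p = 0.0672) and passed it in 6 of the 18 alternatives. A copy, Gm8566, is 97.8% identical to Sod1 over 465 bases and had at most 37 reads of its own.

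Sod2 (ENSMUSG00000006818, chromosome 17, 13006846 to 13040063), the matrix enzyme, stood at 171, 172 and 188 CPM in control and at 170, 172 and 175 CPM in FAC. It stood at 215, 198 and 186 CPM in Lip-1+FAC and at 188, 185 and 189 CPM in MT+FAC. Each pretreated library exceeded each FAC library, while control overlapped with each of the other groups. Sod2 rose in Lip-1+FAC against FAC by 0.21 on the log2 scale (SE 0.0587, edgeR adjusted p = 0.00836). Without Lip-1+FAC replicate 1, its highest library, the difference was 0.16 and was not called. In MT+FAC against FAC the value was 0.12 (95% interval -0.0041 to 0.24), which was not called. Against control Sod2 was 12.8% higher in Lip-1+FAC (edgeR adjusted p = 0.0325), a call lost in 8 of the 18 alternatives, with values between 0.006 and 0.23 over all of them. It was lost without control replicate 1 (0.16), control replicate 2 (0.16), Lip-1+FAC replicate 1 (0.12) or Lip-1+FAC replicate 2 (0.18). A stretch of 3110 bases of a long Sod2 transcript is 98.3% identical to Rps6ka2, which had at most 67 reads.

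The balance of the dismutases was read within each library as the log2 ratio of Sod2 to Sod1 counts, without regard to length. It was 0.47 ± 0.195 in control and 0.30 ± 0.0858 in FAC, against 0.89 ± 0.109 with Lip-1+FAC and 1.00 ± 0.112 with MT+FAC (SD, n = 3). The lowest pretreated library, at 0.82, lay above the highest FAC library, at 0.40, and above the highest control library, at 0.59. Ccs, the chaperone that delivers copper to Sod1, was lower than control in each of the other groups, by log2 fold changes of -0.34 in FAC, -0.39 with Lip-1+FAC and -0.26 with MT+FAC (edgeR adjusted p = 0.000645, 0.000271 and 0.0102). Between FAC and either pretreatment, where Sod1 fell, Ccs did not pass the test (-0.05 and 0.08). With offsets for GC content and transcript length it was called higher there (0.23 and 0.31). The fall of Ccs with FAC lay between -0.38 and -0.30 in all 18 alternatives. With offsets, its falls from control in the pretreated groups were therefore smaller than those given here.

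Catalase (Cat, ENSMUSG00000027187, chromosome 2, 103453849 to 103485160) had among the closest replicates of the list. It stood at 1326, 1322 and 1317 CPM in control and at 1390, 1378 and 1402 CPM in FAC. With Lip-1+FAC it stood at 1695, 1643 and 1626 CPM, and with MT+FAC at 1573, 1484 and 1567 CPM. The 4 groups did not overlap, in the order control, FAC, MT+FAC and Lip-1+FAC. Against FAC, Cat rose with liproxstatin-1 by 0.25 (SE 0.048, edgeR adjusted p = 0.000439) and with Mito-TEMPO by 0.15 (SE 0.048, edgeR adjusted p = 0.0193). The second call was lost in the fits without FAC replicate 1 (0.14), FAC replicate 2 (0.14), MT+FAC replicate 1 (0.13) or MT+FAC replicate 3 (0.14), while the value moved little. Against control Cat was 25.2% higher in Lip-1+FAC and 16.6% higher in MT+FAC (edgeR adjusted p = 5.9e-05 and 0.00349). The step from control to FAC was 5.2% and was not called (edgeR adjusted p = 0.253).

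Gpx1 (ENSMUSG00000063856, chromosome 9, 108338903 to 108340343), a selenoprotein that reduces hydrogen peroxide with glutathione, ran the other way. It stood at 1188, 1167 and 1200 CPM in control and at 1045, 1122 and 1106 CPM in FAC. With Lip-1+FAC it stood at 1015, 1035 and 913 CPM, and with MT+FAC at 995, 1066 and 988 CPM. Control lay above every other library. Against control, Gpx1 fell by 16.6% in Lip-1+FAC (edgeR adjusted p = 0.00197) and fell by 14.2% in MT+FAC (edgeR adjusted p = 0.0109), the second call being lost without MT+FAC replicate 3 (-0.20). It did not pass the test in FAC against control (-0.12, edgeR adjusted p = 0.115) or in either pretreatment against FAC. Both calls against control were lost with offsets for GC content and transcript length together, as given below. Against FAC, Gpx1 with liproxstatin-1 stood at -0.14 (edgeR adjusted p = 0.0541) and was called in 5 of the 18 alternatives, in 1 of them with the opposite sign. With Mito-TEMPO it stood at -0.10 and was called in 1 alternative, with the opposite sign (0.14, offsets with the replicate block).

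Among the mitochondrial peroxiredoxins, Prdx3 (ENSMUSG00000024997, chromosome 19, 60864051 to 60874556) stood at 162, 165 and 156 CPM in control and at 128, 123 and 147.1 CPM in FAC. It stood at 168, 173 and 173 CPM in Lip-1+FAC and at 167, 171 and 175 CPM in MT+FAC. The 3 FAC libraries were the lowest of all 12, and the pretreated libraries were the highest, narrowly above control. With FAC, Prdx3 fell by 0.28 on the log2 scale (SE 0.0622, edgeR adjusted p = 0.00181). Against FAC it rose by 0.37 with either pretreatment (SE 0.0621 each, edgeR adjusted p = 0.000131 with liproxstatin-1 and 0.000146 with Mito-TEMPO). Each of these 3 calls held in all 18 alternatives. Against control, Prdx3 was 6.49% higher in Lip-1+FAC and 6.45% higher in MT+FAC, which did not pass the test (edgeR adjusted p = 0.289 and 0.33).

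Prdx5 (ENSMUSG00000024953, chromosome 19, 6906697 to 6910106) ranged over all libraries from 206 CPM in a Lip-1+FAC library to 276 CPM in control replicate 3 and was called in no comparison. Group means were 246 ± 26.3 CPM in control and 248 ± 3.74 CPM in FAC, against 221 ± 14.9 CPM with Lip-1+FAC and 225 ± 8.35 CPM with MT+FAC (SD, n = 3). Both pretreated groups lay below the FAC libraries, by log2 fold changes of -0.17 and -0.14 (edgeR adjusted p = 0.0646 and 0.114). The value for liproxstatin-1 passed the threshold in 6 of the 18 alternatives and that for Mito-TEMPO in 2. With offsets for GC content and transcript length the values were -0.02 and -0.07, and neither was called. Of the exonic bases of Prdx5, 19.1% overlap Trmt112 on the opposite strand, and reads there are not assigned to either gene. Of the 4 peroxiredoxins listed outside mitochondria, 1 was called higher, 1 lower and 2 not called in each pretreatment against FAC. Prdx1 rose against FAC by 0.48 with liproxstatin-1 and 0.26 with Mito-TEMPO, and Prdx4, of the endoplasmic reticulum, fell, with log2 fold changes of -0.38 and -0.46 (edgeR adjusted p between 2.47e-06 and 0.00134). Prdx2 (0.075 and 0.063) and Prdx6 (-0.066 and -0.097) did not pass the test, although with offsets for GC content and transcript length Prdx6 was called lower (-0.14 and -0.20).

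Of the pair that reduces Prdx3, thioredoxin 2 (Txn2, ENSMUSG00000005354, chromosome 15, 77915047 to 77929006) stood at 333, 328 and 373 CPM in control and at 340, 320 and 360 CPM in FAC. It stood at 275, 284 and 254 CPM in Lip-1+FAC and at 273, 291 and 301 CPM in MT+FAC. All pretreated libraries lay below all libraries of control and FAC, which overlapped. Txn2 fell against FAC, with a log2 fold change of -0.33 for liproxstatin-1 (SE 0.0655, edgeR adjusted p = 0.00066) and -0.24 for Mito-TEMPO (SE 0.0654, edgeR adjusted p = 0.00757), calls that held in all 18 alternatives each. Against control it fell by 21.4% in Lip-1+FAC and fell by 16.4% in MT+FAC (edgeR adjusted p = 0.000582 and 0.00974), the second not being called without control replicate 3 (-0.20). FAC against control gave -0.02 (95% interval -0.16 to 0.12).

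Thioredoxin reductase 2 (Txnrd2, ENSMUSG00000075704, chromosome 16, 18426384 to 18479073), like Gpx1 a selenoprotein, stood at 68.4, 74.6 and 73.5 CPM in control and at 60.9, 58.4 and 62.4 CPM in FAC. It stood at 65.7, 66.4 and 69.7 CPM in Lip-1+FAC and at 70.4, 69.7 and 72.8 CPM in MT+FAC. The FAC libraries were the lowest 3 of 12, and pretreated libraries overlapped with control. Txnrd2 fell by 0.25 with FAC (SE 0.0609, edgeR adjusted p = 0.00318), in each of the 18 alternatives. It rose against FAC with Mito-TEMPO by 0.23 (SE 0.0608, edgeR adjusted p = 0.00614), also in each of the 18. With liproxstatin-1 the difference was 0.15 (95% interval 0.02 to 0.28, edgeR adjusted p = 0.0568), which was not called, although it was called in 4 of the 18 alternatives. The direct comparison of the pretreatments did not separate these values (0.08, 95% interval -0.05 to 0.21). Txn2 and Txnrd2 thus went in opposite directions against FAC under Mito-TEMPO, although their proteins act in sequence.

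The cytosolic partner of Txnrd2 differed from it. Txnrd1, the cytosolic thioredoxin reductase, rose with FAC by 0.71 on the log2 scale where Txnrd2 fell (edgeR adjusted p = 7.03e-08). The log2 ratio of Txnrd2 to Txnrd1 counts was -3.23 ± 0.0802 in control and -4.19 ± 0.113 in FAC, against -4.47 ± 0.0379 with Lip-1+FAC and -4.12 ± 0.0898 with MT+FAC (SD, n = 3). Each control library lay above each of the other 9. The log2 ratio of Txn2 to Txn1 was 0.23 ± 0.0727 in control and 0.06 ± 0.0859 in FAC, with Lip-1+FAC at -0.12 ± 0.14 and MT+FAC at 0.17 ± 0.0291 (SD, n = 3). The Lip-1+FAC libraries (-0.22 to 0.04) lay below those of control (0.14 to 0.28) and of MT+FAC (0.14 to 0.19) and overlapped with FAC (-0.02 to 0.15).

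Glutaredoxin 2 (Glrx2, ENSMUSG00000018196, chromosome 1, 143716338 to 143749676) had 468 to 1043 reads in a library. A stretch of 343 to 348 bases of its transcripts is at least 95% identical to stretches of 23 other genes, of which Pign had up to 1069 reads, and the counts of Glrx2 are uncertain there. It stood at 26.9, 22.5 and 25.7 CPM in control and at 18.2, 20.0 and 20.4 CPM in FAC. With Lip-1+FAC it stood at 23.2, 24.1 and 21.1 CPM, and with MT+FAC at 20.3, 20.8 and 20.2 CPM. Each control library lay above each FAC and MT+FAC library, while Lip-1+FAC lay above FAC and MT+FAC and overlapped with control. Glrx2 fell by 0.36 with FAC (SE 0.0926, edgeR adjusted p = 0.00554), in each of the 18 alternatives. It did not pass the test against FAC with liproxstatin-1 (0.22, edgeR adjusted p = 0.0654) or with Mito-TEMPO (0.07, edgeR adjusted p = 0.606). Against control it fell by 18.3% in MT+FAC (edgeR adjusted p = 0.0339), a call lost with no filter on low counts (-0.27) and in each of the 5 fits without control replicate 1 (-0.23), control replicate 3 (-0.27) or MT+FAC replicates 1, 2 and 3 (-0.29, -0.30 and -0.28). The cytosolic glutaredoxin Glrx also fell by 0.76 with FAC (edgeR adjusted p = 8.83e-07).

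The pretreatments were compared directly, MT+FAC against Lip-1+FAC, and 0 of the 10 genes were called by edgeR, by DESeq2 or by limma-voom, where edgeR called 1.34% of all genes, 0.465% higher and 0.879% lower. Libraries did not overlap for 2 of 10 genes, Cat and Glrx2, against 19.8% of all genes. In edgeR 1795 genes were under an unadjusted 0.05, and Cat was the only one of the list among them, with a log2 difference of -0.10 (95% interval -0.20 to -0.0015). For Sod1 the interval was -0.41 to 0.0080 and for Glrx2 -0.35 to 0.04. For Prdx3 it was -0.13 to 0.13, for Txn2 -0.05 to 0.23 and for Sod2 -0.21 to 0.03. Differences of these sizes between the scavengers were therefore not resolved.

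In the comparisons with control, where FAC and a scavenger change together, 4 of the 10 genes were called in Lip-1+FAC (Cat and Sod2 higher, Txn2 and Gpx1 lower), against 30.2% of all genes, 15.4% higher and 14.8% lower. In MT+FAC 5 were called (Cat higher and Sod1, Glrx2, Txn2 and Gpx1 lower), against 19.8% of all genes, 9.71% higher and 10.1% lower. Libraries did not overlap with control for 4 of 10 genes in Lip-1+FAC (43.3% of all genes) and for 6 of 10 in MT+FAC (38.2%). The number called in MT+FAC was 3 without control replicate 3 or without MT+FAC replicate 3. Prdx3 and Txnrd2, which fell with FAC, were not called against control in either pretreated group. For Txnrd2 the log2 fold changes were -0.10 (95% interval -0.23 to 0.03) and -0.03 (95% interval -0.15 to 0.10).

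Several of these values moved when the fit was given an offset per gene and library for GC content and transcript length. For Gpx1 the differences from control changed from -0.26 to 0.03 in Lip-1+FAC and from -0.22 to 0.02 in MT+FAC, and both calls were lost. For Sod2 the difference from FAC with liproxstatin-1 went to 0.11 and was not called, and that from control was 0.006. The rise of Cat with Mito-TEMPO against FAC went to 0.05 and was not called, whereas Cat in FAC against control went to 0.18 and was called (edgeR adjusted p = 0.00659). The fall of Prdx3 with FAC was smaller, at -0.18, and still called. With offsets Prdx3 was above control in Lip-1+FAC (0.19) and MT+FAC (0.23), both called. Txnrd2 was called higher in Lip-1+FAC than in FAC, at 0.19. The calls of Prdx3, Sod1 and Txn2 against FAC held with offsets, for Sod1 at -0.47 and -0.68. The fall of Txn2 against control shrank to -0.20 in Lip-1+FAC and remained called.

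**Figure D4:**
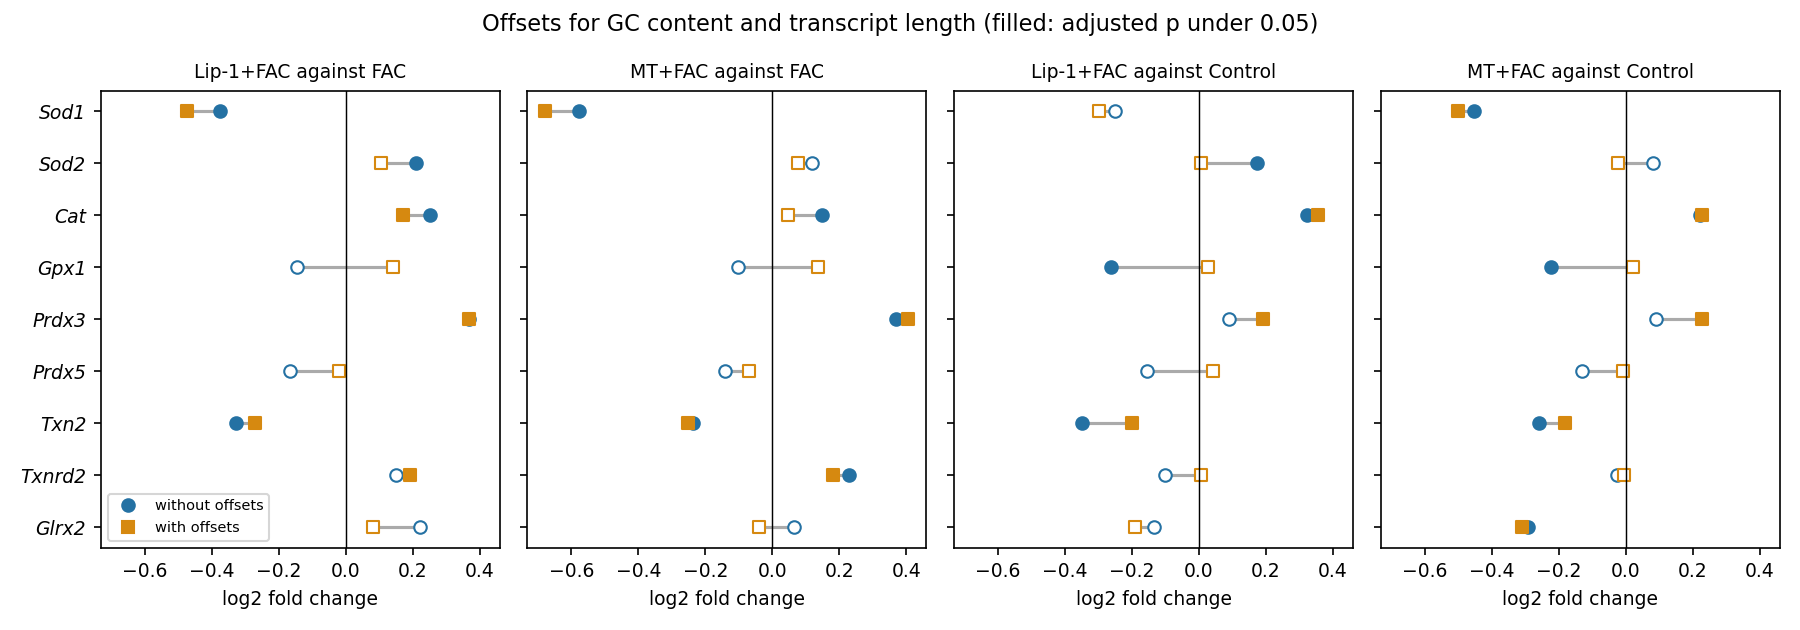
Log2 fold changes of 9 genes (without Nnt) with and without offsets for GC content and transcript length, for both pretreatments against FAC and against control; filled symbols have an adjusted p under 0.05. Gpx1 crosses 0 in each panel, whereas Sod1 and Txn2 stay left of 0 and Prdx3 stays right of 0.

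Lists of genes around these enzymes were counted in the same fit. Beside these counts stand the shares of all genes called, which were 17.5% higher and 19.1% lower in FAC against control, 20.7% and 19.2% in Lip-1+FAC against FAC, and 21.2% and 19.7% in MT+FAC against FAC. Peroxisomal oxidases, which produce the hydrogen peroxide that catalase removes, were lower with FAC in 5 of 8 tested and higher in 0, with a list median of -0.58 against -0.006 over all genes. Hao1, hydroxyacid oxidase 1, fell by 0.99 and Pipox, pipecolic acid oxidase, fell by 0.85. Against FAC, 5 of 8 were higher with each pretreatment and 0 lower, Hao1 by 0.68 with liproxstatin-1 and 0.73 with Mito-TEMPO. Of 21 peroxisome assembly and membrane genes, 9 fell with FAC and 0 rose. Pxmp4 fell by 1.08. Against FAC, 9 rose and 2 fell with liproxstatin-1, and 8 rose and 2 fell with Mito-TEMPO. Against control, 9 of the 21 were lower with liproxstatin-1 and 5 with Mito-TEMPO, and 0 were higher, where 14.8% and 10.1% of all genes were lower. Cat, in the same organelle, was not called with FAC and rose with either pretreatment against FAC.

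Of 11 genes of selenium supply and selenocysteine incorporation, on which the selenoproteins Gpx1 and Txnrd2 depend, 6 fell and 1 rose with FAC. The falls included Pstk (-0.46, edgeR adjusted p = 0.0152), of which 58.8% of the exonic bases overlap Ikzf5 on the opposite strand and whose value was 0.040 with strand columns summed. It was -0.32 and not called without FAC replicate 1. Sepsecs, which makes the selenocysteine on its transfer RNA, fell by 0.28, and Lrp8, a receptor for selenoprotein P, rose by 1.36. Against FAC, 6 rose and 0 fell with liproxstatin-1, and 6 rose and 2 fell with Mito-TEMPO. Sepsecs rose by 0.44 and 0.48. A list of enzymes of mitochondrial NADPH, the substrate of Txnrd2, and of one-carbon metabolism held 9 tested genes, of which 5 rose and 3 fell with FAC. Not all of these make NADPH: Shmt2 and Mthfd1l act in one-carbon metabolism, Nadk2 makes NADP, and Me2 mainly uses NAD. Shmt2, Mthfd1l and Me2 were among the rises, as was the NADPH-producing enzyme Aldh1l2 (0.43, edgeR adjusted p = 0.00888). Against FAC, 2 rose and 4 fell with liproxstatin-1, and 1 rose and 3 fell with Mito-TEMPO. Me2, a mitochondrial malic enzyme, fell against FAC in both, with values of -1.79 and -1.49. Its rise with FAC (0.64, edgeR adjusted p = 0.0486) was not called in 7 of the 18 alternatives, namely with the replicate block (0.62), under upper-quartile scaling (0.63) and without control replicates 1, 2 and 3 (0.76, 0.57 and 0.60), FAC replicate 1 (0.70) or FAC replicate 3 (0.45). Idh2, the matrix isocitrate dehydrogenase, fell by 0.57 with FAC and rose against FAC by 0.53 with liproxstatin-1 and 0.54 with Mito-TEMPO.

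Of 12 thioredoxin, glutaredoxin and recycling genes, most of them cytosolic, 6 rose and 2 fell with FAC. The rises included Glrx5, a mitochondrial glutaredoxin (0.32, edgeR adjusted p = 0.0354). Srxn1, which repairs over-oxidised peroxiredoxins, rose by 0.83 with FAC and by a further 1.11 and 0.68 against FAC in the pretreated groups, and its log2 fold change in MT+FAC against Lip-1+FAC was -0.43 (edgeR adjusted p = 0.00031). Of 14 regulators of mitochondrial antioxidant genes, 4 rose and 3 fell with FAC. The rises included Sirt1 (0.84), Pprc1 (0.65) and Foxo3 (0.51). The falls were Ppargc1a (-0.55), Sirt3 (-0.48) and Nfe2l2 (-0.29, edgeR adjusted p = 0.00252). Of Sirt3, 12.7% of the exonic bases overlap other genes. Of 22 mitochondrial housekeeping genes, 3 rose and 2 fell with FAC. Against FAC, 5 of these rose and 7 fell with liproxstatin-1, and 3 rose and 10 fell with Mito-TEMPO. Lonp1, the matrix protease, fell, with values of -0.57 and -0.56, where Prdx3 rose by 0.37.

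**Figure D5:**
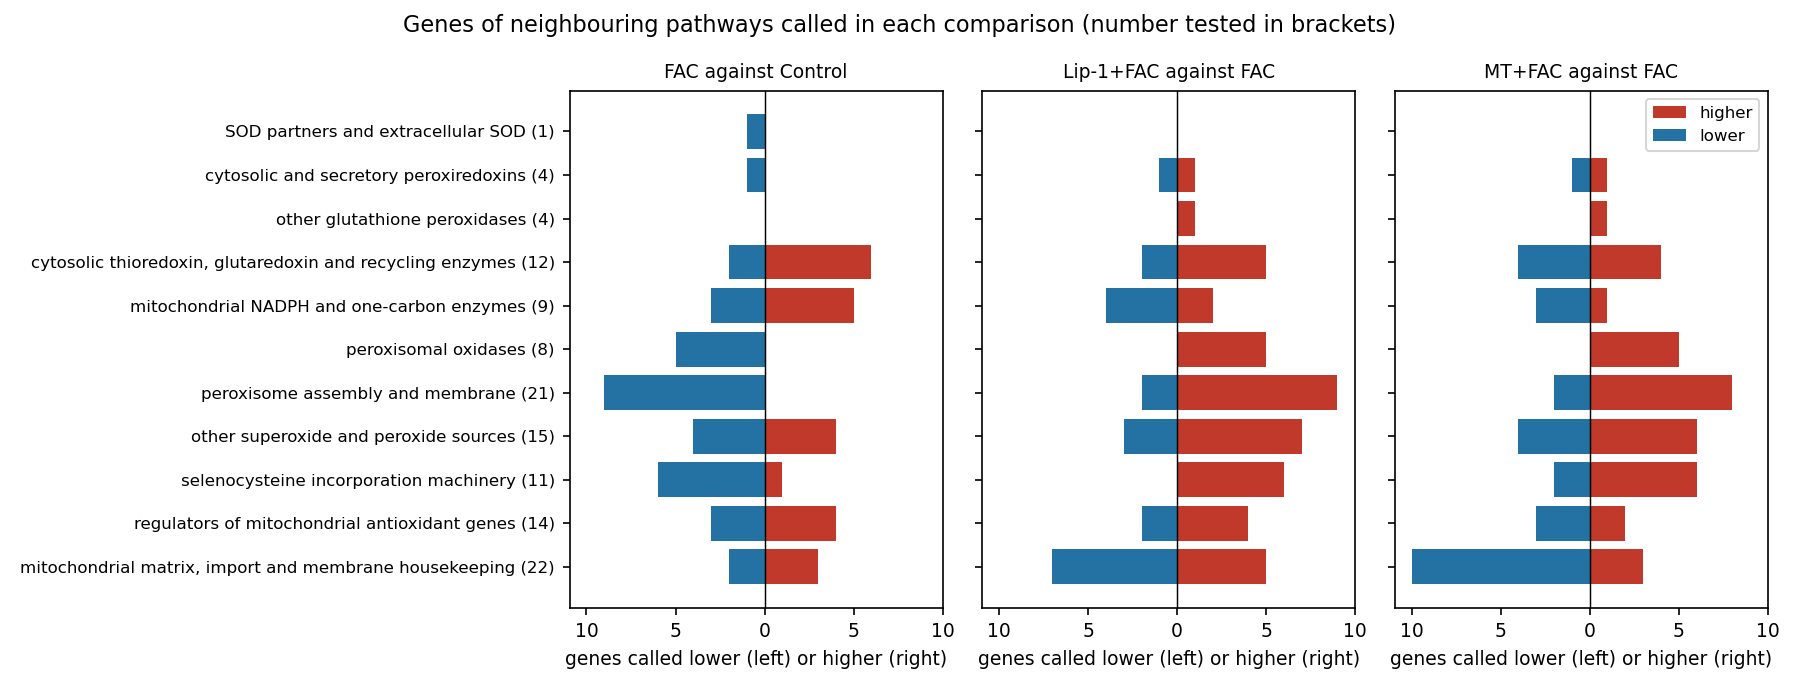
Number of genes called higher (right) and lower (left) in each neighbouring list in 3 comparisons, with the number tested in brackets. Peroxisomal oxidases and peroxisome genes extend only to the left in FAC against control and mainly to the right in both pretreatments against FAC.

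The genes most like each enzyme were found by Pearson's r of log2 CPM over the 12 libraries, among 8999 protein-coding genes (9000 for Nnt) with a mean of at least 5 CPM. As the libraries fall into 4 groups and share treatment and depth, these values are descriptions. Cat was closest to Gsta2 (r = 0.992), a glutathione transferase gene, then Dhrs9 and Ccser2 (0.977 each). Prdx3 was closest to Afap1 (0.973) and to Psma1 (0.972), a proteasome subunit gene. Among the 3 genes closest to Txnrd2 was Ak3 (0.964), a matrix adenylate kinase. Txn2 was closest to Myl6 (0.978) and Emd (0.976), and Sod1 to Ino80e (0.963) and Grina (0.957). Sod2 was closest to Gpx4 (0.932) and Gpx1 to Med28 (0.95). Prdx5 was closest to Srsf9 (0.965) and Phb2 (0.955), and Glrx2 to Mphosph8 (0.943). None of the 10 genes was among the 3 closest of another.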

How the data were processed

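RNA was measured in 12 libraries, with groups read from their titles, 3 libraries a group. According to the labels' protocols, 10 ng of total RNA was amplified with the SMART-Seq v4 kit and libraries were made with Nextera XT. The labels mention no molecular identifiers, and PCR copies cannot be told from separate molecules. The deposited values are raw counts of reads per gene in the layout of STAR, on GRCm38, per the submitters' processing notes. The annotation and the STAR version are not given in the sources used here. The unstranded column was used. Of 55487 identifiers, 55227 matched GENCODE M21.

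After filterByExpr and TMM scaling, groups were compared in edgeR 4.0.16 (R 4.3.3) by its two-sided quasi-likelihood test over all 12 libraries with 4 group means. P-values were adjusted by Benjamini-Hochberg over 13535 genes and called under 0.05. Standard errors came from the F statistic, and 95% intervals from its degrees of freedom. CPM are counts divided by the TMM-scaled library size, per 1000000. DESeq2 1.42.0 and limma-voom (limma 3.58.1) were alternatives, as were other scalings, filters, offsets for GC content and transcript length (known for 13521 of the genes), thinning, a replicate block, summed strand columns and leaving out each library.

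Copies of the 10 genes were searched with blastn 2.17.0 among annotated transcripts (at least 95% identity over 300 bases), and those of other genes were not searched. In each neighbouring list, up to 3 called genes with the largest rise and up to 3 with the largest fall could be named, besides partners of the 10 genes. Likeness names genes among the 3 of highest Pearson's r, and some results are not reported here. The 10 genes and all lists were chosen with earlier results of these data known.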

Additional observations from a re-analysis of the deposited data

How the results depend on the processing

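Over 60 differences of the 10 genes, 970 of 1074 alternative fits kept the direction and the side of the threshold. With the direction kept, 25 lost a call and 29 gained one. Another 50 changed sign, and among these some fits of Gpx1 also lost or gained a call. Of the other named genes, 2440 of 2604 fits kept the direction and the side of the threshold. The cause of the direction changes was not tested. With offsets for GC content and length (in brackets with the replicate block too) the value was 0.070 (0.070) for Txn2 and 0.093 (0.093) for Prdx1 in FAC against control, 0.14 (0.14) for Gpx1 and 0.23 (0.23) for Ccs in Lip-1+FAC against FAC, and 0.14 (0.14) for Gpx1 and -0.039 (-0.040) for Glrx2 in MT+FAC against FAC. In MT+FAC against Lip-1+FAC it was -0.0041 (-0.0057) for Gpx1, 0.037 (0.037) for Prdx3, -0.051 (-0.051) for Prdx5 and -0.0090 (-0.0089) for Txnrd2. Against control it was 0.028 (0.029) for Gpx1, 0.042 (0.043) for Prdx5 and 0.0048 (0.0048) for Txnrd2 in Lip-1+FAC, and 0.0235 (0.023) for Gpx1 and -0.022 (-0.021) for Sod2 in MT+FAC. Under upper-quartile scaling Prdx5 was -0.0058 in FAC against control and Prdx3 0.0165 in MT+FAC against Lip-1+FAC, where Prdx3 was also 0.0078 with no filter on low counts, 0.0028 at a mean CPM of at least 5 and 0.0019 when thinned. With strand columns summed Pstk, called lower at -0.46, was 0.040 in FAC against control, Prdx5 -0.00004 in MT+FAC against Lip-1+FAC and Txnrd2 0.0086 in MT+FAC against control.

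When a library was left out, values that changed sign ranged from -0.059 to 0.0088 (Sod2), -0.033 to 0.10 (Prdx5) and -0.064 to 0.040 (Txn2) in FAC against control. In MT+FAC against Lip-1+FAC they ranged from -0.0135 to 0.075 (Gpx1), -0.019 to 0.020 (Prdx3), -0.025 to 0.070 (Prdx5) and -0.31 to 0.093 (Nnt), and in MT+FAC against control from -0.060 to 0.0011 (Txnrd2) and -0.085 to 0.24 (Nnt). None of these was called.

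The number of genes called in MT+FAC against Lip-1+FAC was 182, and 477 with no filter, 312 with only the compared libraries, 437 with DESeq2 and 74 to 156 when a library was left out. Of the 10 genes, 3 to 5 were called in MT+FAC against control when a library was left out, 5 to 6 in Lip-1+FAC against FAC, 4 to 5 in MT+FAC against FAC and 3 to 4 in Lip-1+FAC against control. It was 3 in FAC against control and 0 between the pretreatments in each such fit.

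With the replicate number as a block, 3, 5, 5 and 0 of the 10 genes and 4863, 5278, 5488 and 193 of all genes were called in FAC against control, Lip-1+FAC against FAC, MT+FAC against FAC and MT+FAC against Lip-1+FAC. Against control, 5 of the 10 and 3961 of all genes were called in Lip-1+FAC, where Sod1 was added, and 5 and 2553 in MT+FAC. The numbers did not pair the libraries: deviations from group means correlated over 0.1 in 3 of 18 same-numbered pairs (-0.249 to 0.164, other pairs -0.196 to 0.222), and 4 of 12 libraries correlated best with their own number.

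Nnt had 16 to 51 reads in a library, and reads in bases shared with its second gene model are set aside. The part of depth in this low count was not tested. The other genes had at least 468 reads.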

Other observations

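The position of these enzymes relative to related ones was also read within each library, as a log2 ratio of counts without regard to length, with no test. The ratio of Prdx3 to Prdx1, the abundant cytosolic peroxiredoxin, was -4.05 ± 0.0441 in control and -4.28 ± 0.115 in FAC, against -4.39 ± 0.118 with Lip-1+FAC and -4.17 ± 0.0287 with MT+FAC (SD, n = 3). Prdx3 itself was higher in both pretreated groups than in FAC, but relative to Prdx1 the Lip-1+FAC libraries (-4.52 to -4.28) overlapped with FAC (-4.37 to -4.15). The ratio of Prdx5 to Prdx1 was -3.44 ± 0.157 in control and -3.37 ± 0.0519 in FAC, against -4.02 ± 0.0146 with Lip-1+FAC and -3.77 ± 0.0454 with MT+FAC (SD, n = 3). Here the Lip-1+FAC libraries lay below those of MT+FAC, which lay below those of control and FAC.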
